A study of Rattus norvegicus and Mus musculus and Macaca mulatta with 84 samples.

Results

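Described here are 10 genes of sinusoidal and vascular endothelium, the cells that line the blood vessels of the liver: Stab1, Stab2, Lyve1, Pecam1, Cdh5, Kdr, Flt1, Tek, Eng and Vwf. They were picked by symbol out of 32754 genes in a rat table and 48440 genes in a mouse table. In rats 9 of the 10 were measured, and Pecam1 is not analysed here. In mice all 10 were measured, and every gene measured passed the filter on low values (a mean of at least 10 over the table) in its species.

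The RNA was polyadenylated RNA from whole liver, prepared with the Illumina TruSeq kit per the labels, in 31 of the 84 samples of a series on miR-29, hepatic lipogenesis and diabetes. The rats were all of the UCD-T2DM strain, a strain in which obesity and diabetes arise spontaneously, so the control libraries carry the same genetic background as the diabetic ones. They comprised 5 prediabetic rats, 4 rats with diabetes for 2 weeks, 5 with diabetes for 3 months and 6 with diabetes for 6 months. The mice were C57BL/6J, with 5 livers labelled LNA29 treatment and 6 labelled control; by its name LNA-29 is a locked nucleic acid inhibitor of miR-29. Its dose, duration and sequence, what the control mice received, and the age and sex of the animals are not given in these sources. Each library has a sample number of its own in the labels, read here as 1 animal each. Nothing states this outright, so p-values measure the spread between these libraries, which may be technical. All values are read counts normalised by the authors. In units of 1000000 their sums ranged from 37.6 to 49.9 over the rat libraries and from 43.3 to 52.8 over the mouse libraries. The library standing farthest from others of its group was prediabetic replicate 2, with a correlation of 0.954. Values are compared between groups, for 1 gene at a time or for the summed count of a list. Expression levels are not compared between genes, since the values are not per transcript length. In a summed count the genes with the highest counts weigh most.

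Liver sinusoidal endothelial cells line the capillaries of the liver lobule. Unlike most endothelium they are fenestrated, lack a continuous basement membrane, and take up hyaluronan, modified lipoproteins and collagen fragments through scavenger receptors. Stab1 and Stab2 encode stabilins, large scavenger receptors of these cells, and Lyve1 encodes a hyaluronan receptor of sinusoidal and lymphatic endothelium. Kdr (VEGFR2) is the main signalling receptor for VEGF-A, Flt1 (VEGFR1) binds VEGF-A with high affinity and signals weakly, and Tek (TIE2) is the receptor for angiopoietins. Eng (endoglin) is a co-receptor for BMP9 and other TGF-beta family ligands. Cdh5 (VE-cadherin) and Pecam1 (CD31) build the contacts between endothelial cells, and Vwf, stored in the Weibel-Palade bodies of larger vessels and in platelets, captures platelets and carries factor VIII. In bulk liver RNA, a change in the number of endothelial cells and a change in RNA per cell cannot be told apart. Some of the genes are not private to endothelium: macrophages can express Stab1 and Lyve1, and megakaryocytes make Vwf.

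The 3 microRNAs of the miR-29 family and a pair from an endothelial hairpin are shown first, because the mouse comparison is named for the former and the latter was measured in separate small RNA libraries of rats of this strain. Sequences are the mature rat forms from RefSeq (GRCr8), 5′ to 3′, with the seed, bases 2 to 8, in capitals.
rno-miR-29a-3p: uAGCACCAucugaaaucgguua
rno-miR-29b-3p: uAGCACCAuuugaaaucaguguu
rno-miR-29c-3p: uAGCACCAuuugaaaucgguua
rno-miR-126a-3p: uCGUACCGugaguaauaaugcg
rno-miR-126a-5p: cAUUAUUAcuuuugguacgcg
The miR-29 forms share 1 seed, AGCACCA. In the same build miR-29a-3p lies at chr4:60617968-60617989 and 1 copy of miR-29b-3p at chr4:60618342-60618364, both on the minus strand, while the other copy of miR-29b-3p lies at chr13:109098882-109098904 and miR-29c-3p at chr13:109099412-109099433, both on the plus strand. The miR-126a forms carry other seeds and come from chr3:29813219-29813240 (3p) and chr3:29813182-29813202 (5p), on the plus strand inside Egfl7, a gene of endothelial cells.

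Promoter windows of 250 bases were read from RefSeq (GRCr8) for 6 of the 10 genes, Stab1, Stab2, Lyve1, Kdr, Flt1 and Eng. Some of these bases can lie inside the annotated gene. Such bases are left out of the windows printed here, so 218 bases are shown for Kdr. The windows of Lyve1, which rose in long-standing diabetes (below), and of Kdr, which had no call at any stage, are shown 5′ to 3′ on the strand of the gene, with matches to any motif searched, on either strand, in capitals.
Lyve1, chr1:174410978-174411227, minus strand: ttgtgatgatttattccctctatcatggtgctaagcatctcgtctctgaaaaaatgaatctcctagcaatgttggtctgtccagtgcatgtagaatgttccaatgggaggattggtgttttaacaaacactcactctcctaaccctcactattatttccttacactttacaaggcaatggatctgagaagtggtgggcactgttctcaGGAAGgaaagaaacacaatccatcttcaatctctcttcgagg
Kdr, chr14:32571813-32572030, plus strand: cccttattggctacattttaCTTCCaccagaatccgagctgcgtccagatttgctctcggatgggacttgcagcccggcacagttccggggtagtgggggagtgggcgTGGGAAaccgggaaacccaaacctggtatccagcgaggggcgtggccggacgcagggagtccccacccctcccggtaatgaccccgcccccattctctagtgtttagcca
The motifs searched were GGAAG, a core bound by the ETS factors that many endothelial genes use, AGATAA for GATA factors and TGGGAA for RBPJ, the DNA-binding partner of Notch. In the full 250-base windows, GGAAG was present in 6 of 6 genes, against 63.3% of 33469 windows of all genes. AGATAA was present in 0 of 6, against 10.3%, and TGGGAA in 1 of 6 (Kdr), against 22.1%. A match is a description of letters and shows no binding.

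The first question was whether endothelial gene expression differed with the duration of diabetes. The ages of the rats are not given, so the duration of diabetes and any difference in age between stages cannot be told apart. At 3 months, Vwf, Lyve1 and Flt1 rose against prediabetes, and all 9 genes measured had a log2 change above 0, with a median of 0.35. At 6 months Vwf and Lyve1 rose, 8 of 9 genes were above 0 and the median was 0.19. At 2 weeks none of the 9 was called. The calls are limma tests on log2(normalised count + 1), 2-sided, with the Benjamini-Hochberg adjustment over all 13640 genes tested and a threshold of 0.05. At 3 months 16.5% of all genes tested were called, 7.76% higher and 8.72% lower, and 52.1% had a change above 0. At 6 months 21.1% were called, 11% higher and 10% lower, with 50.8% above 0. At 2 weeks 0% of genes were called with limma, and 1077 (7.9%) had an unadjusted p under 0.05. The median change of all genes was 0.02 at 3 months and 0.01 at 6 months. The 3 stages were compared with the same 5 prediabetic libraries, so their changes are not independent of each other. Without prediabetic replicate 2, the library that stood apart, the same 3 genes were called at 3 months. Their log2 changes were 0.84 (Vwf), 0.40 (Lyve1) and 0.29 (Flt1). The same 2 were called at 6 months (0.94 and 0.35 for Vwf and Lyve1). Without 3-month replicate 1, however, all 3 calls at 3 months were lost (limma adjusted p 0.0645, 0.0590 and 0.0542 for Vwf, Lyve1 and Flt1). The 6-month call of Lyve1 was lost without 6-month replicate 5 (limma adjusted p 0.0591).

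**Figure D1:**
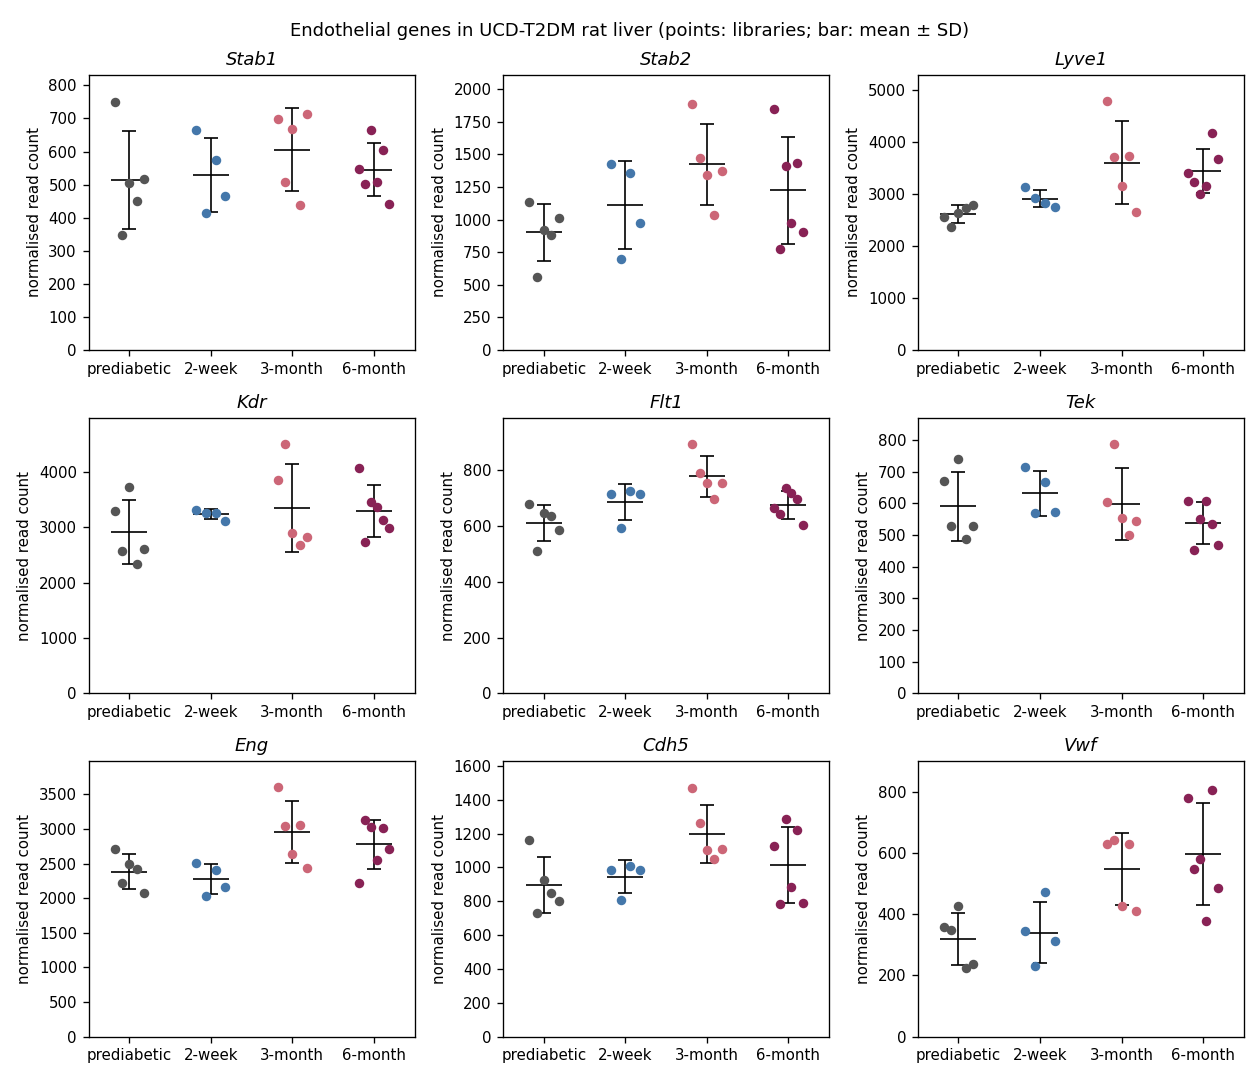
Normalised read count (vertical axis, from 0) of the 9 genes measured in rats, by stage (horizontal axis); each point is 1 library and the bars are mean ± SD (n = 5, 4, 5 and 6). The 3-month Flt1 values lie above all prediabetic ones, as do the 6-month Lyve1 values, and Vwf at 3 and 6 months spans from inside the prediabetic range to well above it.

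Among the scavenger and hyaluronan receptors, Lyve1 was the member with calls at both late stages. The 5 prediabetic rats had 2556, 2365, 2642, 2726 and 2795 normalised counts, and the 4 rats at 2 weeks had 3144, 2927, 2831 and 2759. At 3 months the values were 4784, 3715, 3161, 3733 and 2649, and at 6 months they ran from 3002 through a median of 3321 to 4178. Every 6-month rat thus lay above every prediabetic rat, and at 3 months 1 rat of 5 (replicate 5) fell inside the prediabetic range. Ranges that did not overlap, with the later stage higher, were found for 4.63% of all genes at 6 months and 5.42% at 3 months. The mean rose from 2617 ± 167 (SD, n = 5) to 3608 ± 795 (n = 5) at 3 months, a log2 change of 0.44 ± 0.12 (SE) with a limma adjusted p of 0.0196. It was 3445 ± 428 (n = 6) at 6 months, a log2 change of 0.39 ± 0.12 with an adjusted p of 0.0233. The change at 2 weeks was 0.16 (adjusted p 0.779). The call at 3 months was lost without 3-month replicate 1, the highest rat (log2 0.33, adjusted p 0.0590), and when only the 2 groups entered the fit (adjusted p 0.0650). The call at 6 months was lost without 6-month replicate 5, also the highest of its group (log2 0.33, adjusted p 0.0591).

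Stab2, the hyaluronan-clearing stabilin, had a larger change than Lyve1 but a wider spread. Prediabetic rats had 1137, 557, 919, 880.0 and 1012 normalised counts, and 3-month rats 1885, 1474, 1344, 1033 and 1372. The groups overlapped in the lower part of the 3-month range. The log2 change was 0.67 (95% interval 0.16 to 1.18) at 3 months, with a limma adjusted p of 0.0669, and 0.41 (interval -0.08 to 0.90, adjusted p 0.226) at 6 months, when the values ran from 778 through a median of 1189 to 1849. At 2 weeks the 4 rats had 1422, 698, 1352 and 974, a log2 change of 0.29 (adjusted p 0.813). It reached adjusted p values under the threshold without 3-month replicate 4 (0.0477) and with only the 2 groups in the fit (0.0499). Stab1, its relative, was at 514 ± 148 normalised counts (SD, n = 5) in prediabetes, 530 ± 112 (n = 4) at 2 weeks, 606 ± 125 (n = 5) at 3 months and 545 ± 80.0 (n = 6) at 6 months. These Stab1 ranges overlapped throughout, and the largest change, 0.26 at 3 months, had a 95% interval of -0.13 to 0.64 and an adjusted p of 0.365.

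The VEGF receptors differed from each other in what was called. Flt1 counts were 678, 511, 647, 635 and 585 in prediabetic rats and 895, 791, 754, 698 and 753 at 3 months, so every 3-month rat lay above every prediabetic rat. The Flt1 mean rose from 611 ± 65.4 to 778 ± 73.4 (SD, n = 5 each), a log2 change of 0.35 ± 0.09 (SE) with a limma adjusted p of 0.0166. At 6 months the values ran from 603 through a median of 680.4 to 736, inside or just above the prediabetic range, and the log2 change was 0.15 (95% interval -0.04 to 0.34, adjusted p 0.247). The direct comparison of 6 with 3 months gave -0.20 with an adjusted p of 0.632, so a difference between these stages was not established. In that comparison 0.0147% of all genes were called, and none of the 9. The 3-month call of Flt1 was lost without 3-month replicate 1, the highest of its group (log2 0.30, adjusted p 0.0542), and with only the 2 groups in the fit (adjusted p 0.0578). Kdr had similar changes at every stage: 0.18 at 2 weeks, 0.20 at 3 months (95% interval -0.11 to 0.50) and 0.19 at 6 months, with limma adjusted p values of 0.800, 0.381 and 0.359. Its prediabetic counts were 3287, 2578, 3728, 2339.8 and 2609 and its 3-month counts 3856, 4499.6, 2896, 2683 and 2827, so 2 high rats at 3 months stood above the prediabetic range and 3 lay inside it.

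Tek, the angiopoietin receptor, had the smallest change of the panel at 3 months and was the 1 gene below 0 at 6 months. Its means were 591 ± 109 (SD, n = 5) in prediabetes, 632 ± 72.1 (n = 4) at 2 weeks, 598 ± 113 (n = 5) at 3 months and 537 ± 66.0 (n = 6) at 6 months. The log2 change was 0.02 (95% interval -0.27 to 0.30) at 3 months and -0.13 (interval -0.40 to 0.15) at 6 months. Eng, the BMP9 co-receptor, was at 2714, 2225, 2493, 2419 and 2069 normalised counts in prediabetic rats and at 3606, 3038, 2635, 3061 and 2440.5 at 3 months. Of the 3-month rats, 3 lay above all prediabetic ones. The Eng log2 change was 0.30 (95% interval 0.06 to 0.54) with a limma adjusted p of 0.0732, and 0.0340 without 3-month replicate 5, its lowest rat. At 6 months it was 0.22 (adjusted p 0.170) and at 2 weeks -0.06.

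Cdh5, the adhesive cadherin of endothelial junctions, had 1163, 730.5, 924, 849 and 804 normalised counts in prediabetic rats, 987, 805, 1010.3 and 982 at 2 weeks, and 1470.2, 1259.6, 1104, 1052 and 1107 at 3 months. All 3-month rats were above all 2-week rats, which 4.2% of all genes also were. The log2 change was 0.43 from prediabetes (95% interval 0.11 to 0.75, limma adjusted p 0.0578) and 0.34 from 2 weeks (adjusted p 0.272). Without prediabetic replicate 1, the highest of that group, the change from prediabetes was 0.53 with an adjusted p of 0.0250. At 6 months the Cdh5 values spread from 784 through 1007 to 1285, and the change was 0.17 (adjusted p 0.428).

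Vwf had the largest change of the panel at both late stages. Its normalised counts were 358, 350.1, 427, 225 and 238 in prediabetes and 345, 231, 472 and 313 at 2 weeks. At 3 months they were 631, 643, 429, 629.6 and 412, and at 6 months they ran from 377 through a median of 566 to 806. Most late-stage rats lay above the prediabetic range; 1 of 5 at 3 months and 1 of 6 at 6 months lay inside it. From a mean of 319.8 ± 85.8 (SD, n = 5), Vwf rose to 549 ± 117 (n = 5) at 3 months and 597 ± 168 (n = 6) at 6 months. The log2 changes were 0.79 ± 0.23 (SE, limma adjusted p 0.0248) and 0.89 ± 0.22 (adjusted p 0.00820), and 0.09 at 2 weeks (adjusted p 0.961). The 6-month call held in all 11 fits that left out 1 rat, with log2 changes from 0.78 to 1.02. The 3-month call was lost without 3-month replicate 1, 2 or 4, or without prediabetic replicate 4 or 5, with adjusted p values from 0.0528 to 0.0731.

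**Figure D2:**
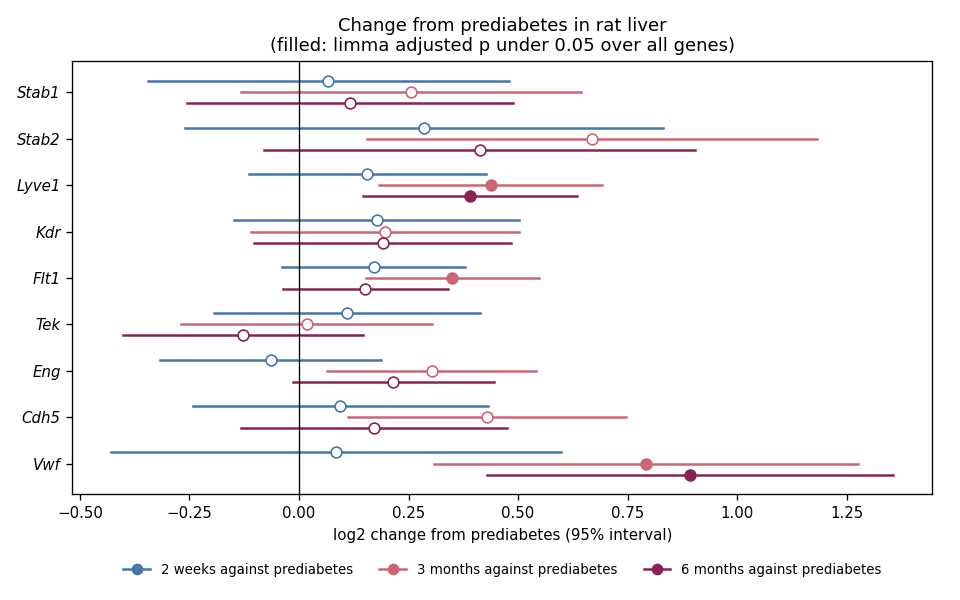
The log2 change from prediabetes (horizontal axis) of each gene at 2 weeks, 3 months and 6 months, with 95% intervals; filled points passed the limma threshold over all genes. Filled points are Lyve1 and Vwf at 3 and 6 months and Flt1 at 3 months, and Tek lies at or below 0.02 at the late stages.

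The stages of diabetes were also compared with each other. Between 6 months and 2 weeks 8.82% of all genes were called, 4.66% higher, and of the panel Vwf alone was, with a log2 difference of 0.81 ± 0.24 (SE) and a limma adjusted p of 0.0393. That call was lost without any 1 of 8 of the 10 rats in it (log2 from 0.64 to 0.86, adjusted p from 0.0504 to 0.161), namely 2-week replicates 1, 2 and 4 and 6-month replicates 1, 2, 3, 5 and 6. Between 3 months and 2 weeks 2.35% of all genes were called, 1.15% higher, and none of the 9, the nearest being Eng (log2 0.37, adjusted p 0.107) and Vwf (0.71, adjusted p 0.128).

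Among the rats, the 9 genes tended to move together. Over the 20 libraries, the Pearson correlation of the log2 values was above 0 in 34 of 36 pairs, with a median of 0.53, from -0.05 (Tek and Lyve1) to 0.87 (Cdh5 and Stab2). After each group's mean was subtracted, so that stage itself could not contribute, it was above 0 in 35 of 36 pairs with a median of 0.47, and the highest was 0.91 between the receptors Tek and Kdr. These values describe 20 rats whose genes share library, tissue piece and normalisation, so no test is attached. Prediabetic replicate 2 was the lowest of its group for 5 of 9 genes, 2-week replicate 2 for 7 and 3-month replicate 4 for 6. In turn, 3-month replicate 1 was the highest for 5. Neither these counts nor the correlations were set against those of all genes, so they may not be particular to the panel. The summed count of the 9 genes ran from 10191 to 13315 in prediabetes, from 11533 to 13817 at 2 weeks, from 12819.9 to 18432 at 3 months and from 12815 to 15612 at 6 months.

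**Figure D3:**
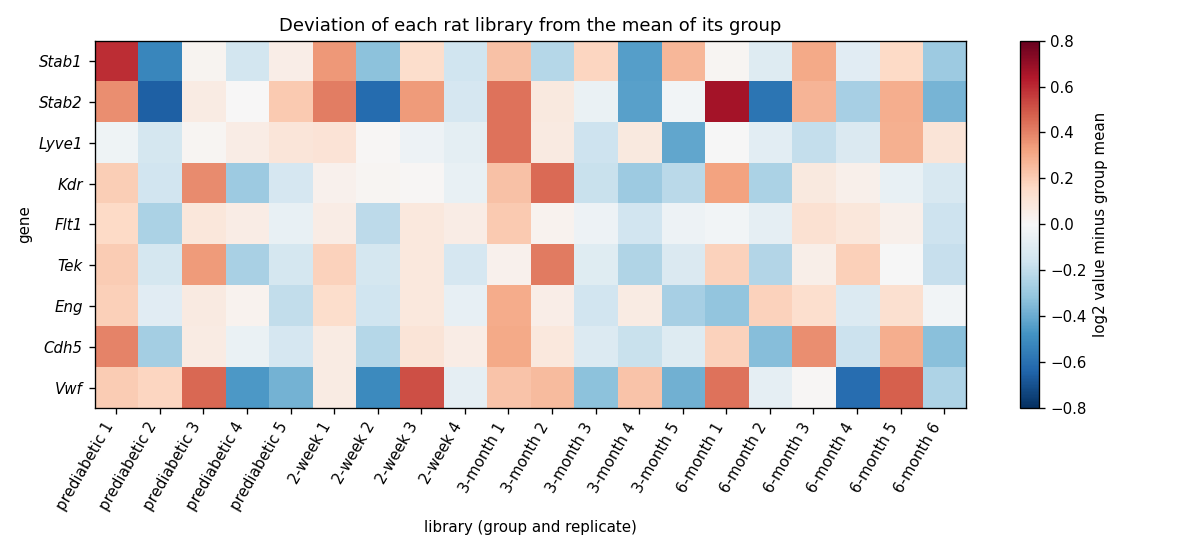
Log2 value of each gene (rows) in each rat library (columns, by group and replicate) minus the mean of its group, on a colour scale from -0.8 (blue) to 0.8 (red). Columns of 1 colour are rats in which most genes deviated together, such as prediabetic replicate 1 (red) and 2-week replicate 2 (blue).

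Further endothelial genes were read from lists drawn up by function with earlier results of these data known. They therefore lend the panel no independent support. Over all genes tested, 7.76% rose and 8.72% fell at 3 months, and 11% rose and 10% fell at 6 months. Of 16 other sinusoidal genes tested, 4 rose and 0 fell at 3 months, with a median of 0.37. At 6 months 1 rose, which is not above the share over all genes, with a median of 0.21. Rspo3, an enhancer of Wnt signalling released by endothelium near the central vein, rose from 142 ± 33.2 (SD, n = 5) to 262 ± 46.0 (n = 5) normalised counts at 3 months, higher in every library (log2 0.90, limma adjusted p 0.00478), and had a log2 change of 0.78 at 6 months (adjusted p 0.00620). Wnt9b, a Wnt ligand of the same region, rose by 1.06 at 3 months from a low level of 31.9 ± 15.9 (adjusted p 0.0229). Of 19 pan-endothelial genes tested, 3 rose and 0 fell at either late stage, with medians of 0.28 and 0.26. Esam, a junction protein also found on platelets, rose by 0.78 at 3 months and 0.90 at 6 months (adjusted p 0.0293 and 0.00896), the transcription factor Fli1 by 0.73 at 3 months, and Nos3, the endothelial nitric oxide synthase, by 0.52 at 6 months. Beside these lists the panel's 3 of 9 and 2 of 9 calls, all higher, had medians of 0.35 and 0.19.

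Genes of larger vessels and continuous capillaries went in both directions. Of 17 tested, 1 rose and 1 fell at 3 months, and 1 rose and 2 fell at 6 months, with medians of 0.15 and 0.13. Among all genes 7.76% rose and 8.72% fell at 3 months, and 11% and 10% at 6 months. These counts therefore do not set the list apart. Thbd (thrombomodulin, the thrombin receptor of endothelium) rose by 0.84 at 3 months and Selp (P-selectin, stored with von Willebrand factor) by 0.51 at 6 months. Ltbp4, which binds latent TGF-beta in the matrix, fell by 0.60 on the log2 scale at 3 months and by 0.54 at 6 months. Of 12 other genes of VEGF and angiopoietin signalling, 2 rose at 3 months and 0 at 6 months: the co-receptor Nrp2 (log2 0.55, higher in every library, limma adjusted p 0.0328) and Flt4 (VEGFR3, log2 0.54, adjusted p 0.0233), a receptor of lymphatic and sinusoidal endothelium. At 6 months Epas1, the gene of that list with the highest mean count, was at 8277 ± 972 (SD, n = 6) normalised counts. In prediabetes it was at 8418 ± 1149.8 (n = 5).

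Of 17 genes around BMP and TGF-beta signalling, in which Eng takes part, 3 rose at 3 months and 2 at 6 months, and none fell. Among all genes 7.76% rose and 8.72% fell at 3 months, and 11% and 10% at 6 months. The 2 of 17 that rose at 6 months are near that share. Id1, a transcriptional target of BMP receptors, rose by 1.20 and 1.16 (limma adjusted p 0.0378 and 0.0304), Tgfbr3, a further co-receptor, by 0.50 at 3 months, and Acvrl1 (ALK1), the receptor that works with Eng, by 0.51 at 6 months. Of 9 genes of Notch signalling 1 rose at 3 months and 2 at 6 months, among them the ligand Jag1 (log2 0.81 at 6 months). Of 10 flow-responsive and scavenger genes 3 rose at 3 months and 2 at 6 months, none falling. They included Cd44, another hyaluronan receptor and one that leukocytes carry (log2 1.07 and 0.97), Klf4, a flow-induced factor (0.80 at 3 months), and Msr1, a scavenger receptor of macrophages (0.52 at 6 months).

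**Figure D4:**
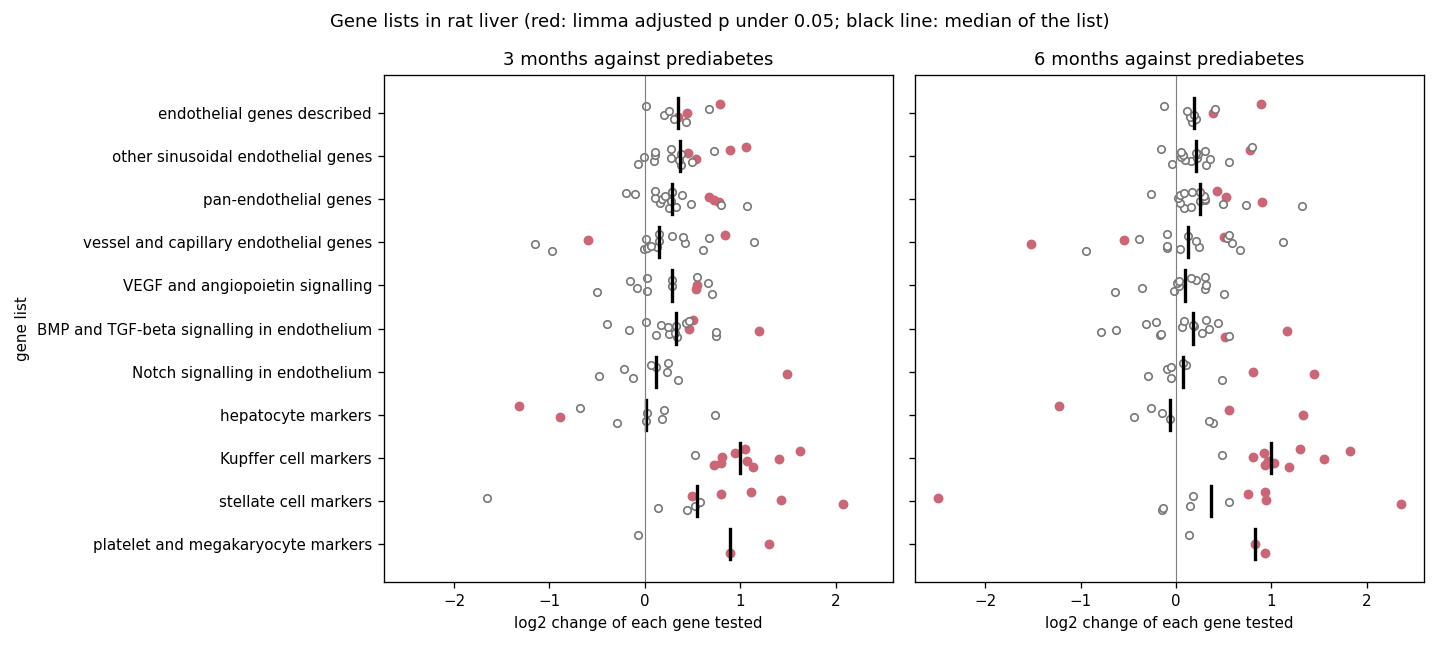
Log2 change from prediabetes (horizontal axis) of each tested gene in 11 gene lists (vertical axis) at 3 and 6 months; red points passed the limma threshold and black lines are list medians. The panel and the 6 lists directly under it, down to Notch signalling, have medians between 0.07 and 0.37, and the Kupffer cell list has a median of 1.00 at both stages.

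Markers of other cell types moved in the same comparisons, and their part in the endothelial results was not tested. Beside the counts here and below, 7.76% of all genes rose and 8.72% fell at 3 months, 11% and 10% at 6 months. Kupffer cell markers rose in 9 of 10 cases at both late stages, with a median of 1.00, led by Marco (log2 1.62 and 1.82) and Cd5l (1.40 and 1.55). Their summed count ran from 14289 to 21724 in prediabetes, 14639.6 to 18270.2 at 2 weeks, 20774 to 49504 at 3 months and 22056 to 65264 at 6 months, and none of the 10 was at 0 throughout a group. Macrophages can express Lyve1 and Stab1. Lymphatic markers rose in 2 of 4 cases at both stages, Ccl21 (1.32 and 2.07) and Reln (0.97 and 0.69), with sums from 734 to 1259.7 in prediabetes, 868 to 1399 at 2 weeks, 1420.1 to 1907 at 3 months and 1365 to 2109 at 6 months. This stands beside Lyve1 and Flt4, which lymphatic endothelium also makes.

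Platelet and megakaryocyte markers, which stand beside Vwf, were measured for 7 genes, of which 3 passed the filter on low values. At both late stages 2 of these 3 rose. The third was not called, and only 2 of the 3 were above 0 at 3 months, against 3 of 3 at 6 months. Itga2b, the platelet integrin subunit, rose by 0.89 at 3 months and 0.94 at 6 months, higher in every library, and Itgb3, its partner, by 1.30 and 0.83. The summed count of the 7 ran from 444 to 656 in prediabetes, 497 to 678 at 2 weeks, 839 to 1187 at 3 months and 694 to 1208 at 6 months, so both late stages lay above both early groups. Gp5, a platelet glycoprotein, was listed at 0 in every prediabetic library. Stellate cell markers rose in 5 of 10 cases at 3 months and 4 at 6 months, led by Dcn (2.08 and 2.36). At 6 months 1 fell, Lox, with a log2 change of -2.50 (limma adjusted p 0.0427). Its 6-month counts varied widely, at 350 ± 715 (SD) against 559 ± 243 in prediabetes. Hepatocyte markers went both ways, with medians of 0.01 and -0.07: Ttr fell by 1.32 and 1.22 on the log2 scale and Fgb rose by 1.33 at 6 months. Lymphocyte and neutrophil markers rose in 3 of 8 cases at both stages, led by S100a9 at 3 months (log2 3.22) and S100a8 at 6 months (2.99). Bile duct markers rose in 1 of 7 and 3 of 7 cases (Krt19, 1.73 and 2.01). Of 5 red cell markers 1 rose at both stages (Slc4a1, 1.67 and 1.77), while most of that list lay below 0. Its genes above 0 were 2 of 5 at 3 months and 1 of 5 at 6 months, with medians of -0.07 and -0.43.

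The second question, which the series ties to miR-29 in liver lipid metabolism, was whether endothelial genes differed in mice given LNA-29. None of the 10 genes was called with limma, and 2 had an unadjusted p under 0.05, as 19.2% of all genes had: Lyve1 (0.00763) and Flt1 (0.0240). Of all 14596 genes tested 2.43% were called, 1.57% higher and 0.863% lower. The median change of the panel was 0.08, with 8 of 10 genes above 0, against a median of 0.00 and 50.1% above 0 over all genes.

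Lyve1 had the largest difference. Control livers ran from 699 through a median of 1435 to 1783 normalised counts, and LNA-29 livers had 765, 564, 714, 537 and 1262. The lowest control (replicate 2) lay among the treated values, and the highest treated liver (replicate 5) lay among the controls. Means were 1325 ± 386 (SD, n = 6) and 769 ± 293 (n = 5), a log2 difference of -0.79 with a 95% interval of -1.34 to -0.25 and a limma adjusted p of 0.111. Without control replicate 2 the difference was -0.97 and the adjusted p 0.0477, while over all fits without 1 library the adjusted p ran from 0.0477 to 0.205. The junction genes gave values near 0: Cdh5 differed by -0.02 (interval -0.20 to 0.15) and Pecam1 by 0.00 (interval -0.16 to 0.17).

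Flt1 was higher in every LNA-29 liver, at 1000.5, 902, 933, 994 and 922 normalised counts, than in the controls, which ran from 766 through 864 to 902. Such ranges, treated above control, were found for 2.4% of all genes, and the gap between the lowest treated (901.69) and the highest control liver (901.67) was negligible. The Flt1 means were 950.1 ± 44.5 (SD, n = 5) and 856 ± 47.4 (n = 6), a log2 difference of 0.15 (95% interval 0.02 to 0.28) with a limma adjusted p of 0.186. Kdr was at 2609 ± 306 against 2539.6 ± 377 in controls, a difference of 0.05 (interval -0.19 to 0.28).

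Stab1 was at 2034 ± 351 (SD, n = 5) in treated and 1769.8 ± 284 (n = 6) in control livers, a log2 difference of 0.20 (95% interval -0.08 to 0.48, limma adjusted p 0.423). Stab2 was at 2443 ± 429 against 2287 ± 158, a difference of 0.08 (interval -0.15 to 0.31). Eng, Tek and Vwf differed by 0.09, 0.08 and 0.14, with intervals from -0.15 to 0.33, from -0.11 to 0.28 and from -0.15 to 0.42. These intervals leave room for differences of up to 0.48 upwards in the case of Stab1, so the panel is not shown to be equal in both groups. Within the LNA-29 group replicate 2 was the lowest for 7 of 10 genes and replicate 5 the highest for 6. These counts were not set against those of all genes.

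**Figure D5:**
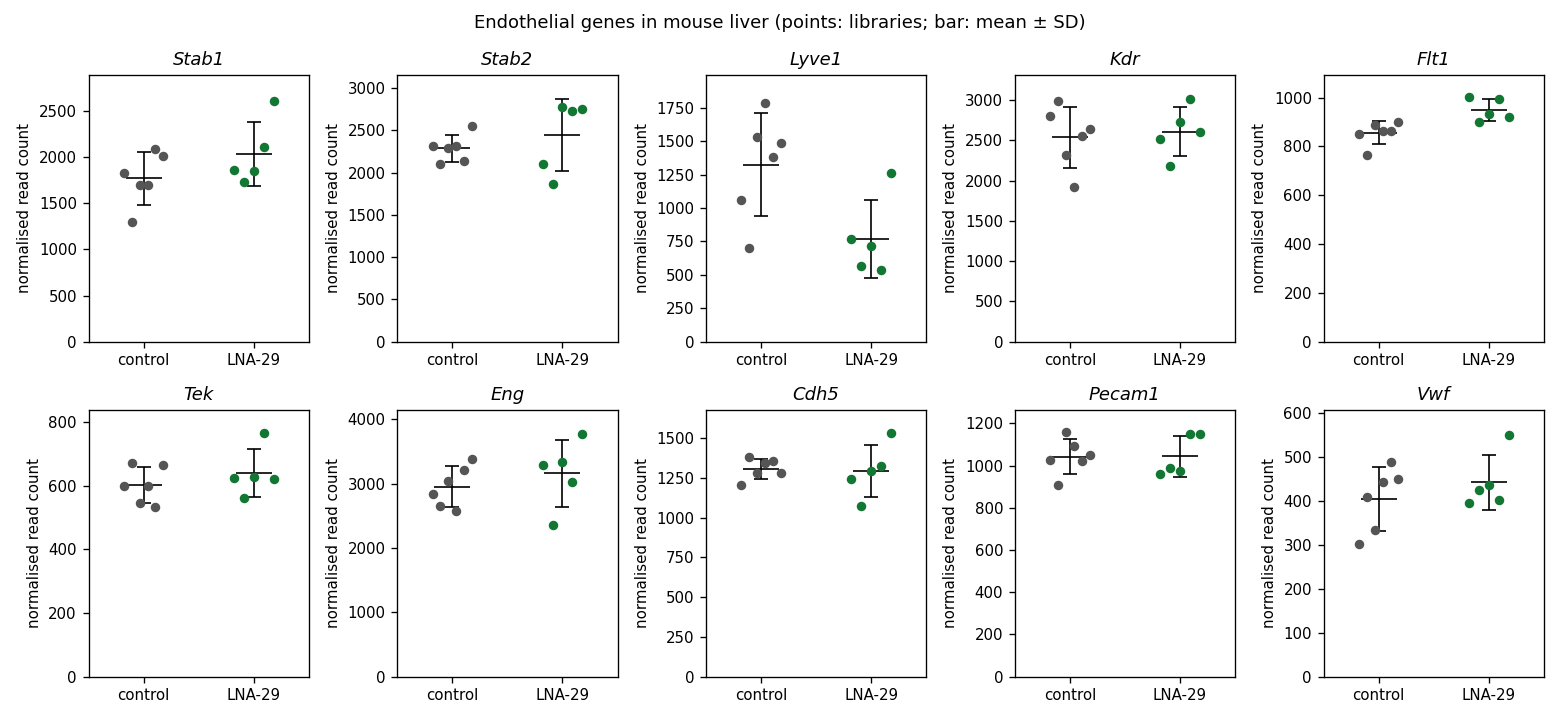
Normalised read count (vertical axis, from 0) of the 10 genes in mouse liver, control (n = 6) and LNA-29 (n = 5); each point is 1 library and the bars are mean ± SD. Lyve1 is lower on average in treated livers with overlapping points, and Flt1 lies at or above the highest control.

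In the same mice 2 of 17 other sinusoidal genes rose and 0 fell, beside 1.57% and 0.863% of all genes. Clec4g, a lectin of sinusoidal endothelium, was at 1537 ± 104 (SD, n = 5) against 1111 ± 119.5 (n = 6) normalised counts, higher in every library (log2 0.47, limma adjusted p 0.0121), and Wnt2, a Wnt ligand of the central vein region, rose from 126 ± 21.4 to 202 ± 27.7 (log2 0.68, adjusted p 0.0245). Of 20 pan-endothelial genes none was called. Ltbp4 fell by 0.36 on the log2 scale, lower in every library (limma adjusted p 0.0310), as the 1 call among 17 vessel and capillary genes. Of all genes 1.54% had treated values all below the controls, and 2.4% all above. Tgfbr1, a TGF-beta receptor, fell by 0.37 (limma adjusted p 0.0460) as the 1 call among 17 genes of BMP and TGF-beta signalling. None of 12 VEGF and angiopoietin, 9 Notch or 9 flow-responsive and scavenger genes was called. Among other cell types, 0 of 11 Kupffer cell markers were called (sums from 9686 to 13010.4 in controls and from 8112 to 15750.2 with LNA-29), Col3a1 of 10 stellate cell markers rose (log2 1.23, adjusted p 0.0358), and Ahsg of 9 hepatocyte markers rose (log2 1.03). None of 3 lymphatic markers was called.

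A separate measurement in the rats was the pair of microRNAs made from inside Egfl7, shown above, in small RNA libraries of 12 rats. MiR-126a-3p was at 1314 ± 77.1 RPM (reads per 1000000 mapped to miRNAs; SD, n = 3) in prediabetes, 1165 ± 105 (n = 6) at 2 weeks and 1542 ± 62.9 (n = 3) at 3 months. The 3-month values, from 1472 to 1594, lay above all those of prediabetes (1225 to 1366) and 2 weeks (1022 to 1301). Of 435 miRNA forms tested 20.2% had 3-month values all above the prediabetic ones and 21.6% all above those at 2 weeks, so miR-126a-3p is not set apart by this. MiR-126a-5p was at 2836 ± 235, 2433 ± 384 and 3312 ± 187. These values are shares of each library's miRNA reads, and no p-value was computed for them.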

How the data were processed

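Liver RNA of 20 UCD-T2DM rats and 11 C57BL/6J mice was read from 2 tables of normalised counts, a signal that the authors deposited. DESeq2, Salmon and STAR, and the builds rn6, mm10, mm9 and hg19, are named in the submitters' processing notes; which step or table each belongs to is not given in the sources used here. The values were not whole reads, so no count model was fitted and the depth is unknown. MiR-126a was taken from the authors' deposited table of RPM (reads per 1000000) for 12 rats.

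Genes with a table mean of at least 10 were tested as log2(value + 1) with limma 3.58.1 in R 4.3.3. The fit used a variance trend, all groups of a table in 1 fit and no replicate block. Benjamini-Hochberg ran over all genes, with a threshold of 0.05. A check on simulated data used independent genes with log2 changes of 1 and 2, so it does not cover smaller changes. Intervals are 95% from the moderated fit. The alternatives were a pseudocount of 8, no filter, median-ratio rescaling, a replicate block, only the 2 groups compared, and leaving out each library. Groups came from sample titles, and no per-sample column was left unused. The 10 genes are always named. From each other list up to 2 called genes per direction and comparison are named, by largest change among genes with a table mean of at least 50. Where none was called, the gene with the highest mean count could be given as values. The genes and lists were chosen with earlier results of these data known. Promoter and miRNA sequences are from RefSeq (GRCr8), matched by symbol or name; no promoter entry was used for Cdh5, Tek, Vwf or Pecam1.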

Additional observations from a re-analysis of the deposited data

Results flagged for a closer look

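Of the 56 groups of 4 to 6 libraries in which each gene's highest and lowest value was checked for standing apart from the rest, 4 had such a library, and chance gives about 1 in 20. Flt1 in 2-week replicate 2 was at 591 normalised counts, with the next library of the group at 714, and Cdh5 in the same rat was at 805 with the next at 982. Vwf in LNA-29 replicate 5 was at 549.7, with the next at 436. Flt1 in control replicate 2 was at 766, with the next at 852.

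The change of Vwf from prediabetes differed between 6 months and 2 weeks by 0.81 on the log2 scale (limma adjusted p 0.0393), with 6-month values from 377 to 806 and 2-week values from 231 to 472. Over the 10 fits that left out 1 library the difference ran from 0.64 to 0.98, and in 8 of them it no longer passed the threshold.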

How the results depend on the processing

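The count of genes of the panel called at 3 months against prediabetes was 3 and stayed 3 with a pseudocount of 8, without the filter and after median-ratio rescaling. It was 2 (Vwf and Stab2) with only these 2 groups in the fit, 5 with a replicate block, and 0 to 4 when 1 library was left out, 0 coming without 3-month replicate 1. At 6 months against prediabetes it was 2, and 1 to 2 without 1 library. At 6 months against 2 weeks it was 1, and 0 without the filter, with a replicate block and with only the 2 groups, and 0 to 1 without 1 library. For LNA-29 it was 0, and 0 to 1 without 1 library. The other counts were 0 in every fit. The cause of these shifts was not tested.

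Changes that were not called and changed sign when 1 library was left out are given as ranges over those fits, on the log2 scale. At 2 weeks against prediabetes they were -0.063 to 0.21 for Stab1 and -0.087 to 0.26 for Vwf, at 3 months -0.087 to 0.10 for Tek, and at 6 months -0.014 to 0.26 for Stab1. At 3 months against 2 weeks the range was -0.094 to 0.092 for Kdr. At 6 months against 2 weeks they were -0.089 to 0.014 for Flt1, -0.060 to 0.17 for Stab1, -0.078 to 0.26 for Stab2 and -0.050 to 0.064 for Kdr. At 6 against 3 months they were -0.079 to 0.11 for Kdr and -0.15 to 0.061 for Lyve1, and with LNA-29 -0.038 to 0.032 for Pecam1, -0.032 to 0.11 for Kdr and -0.087 to 0.042 for Cdh5.

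The labels give the replicate numbers no meaning as a shared animal, litter or day. The deviations of same-numbered libraries had a median correlation of 0.06 in rats (27 pairs, -0.18 to 0.22) and -0.01 in mice (5 pairs, -0.08 to 0.13). Libraries with different numbers had medians of -0.02 in rats and -0.06 in mice. Such correlations cannot decide whether same-numbered libraries share a batch. With the replicate block Cdh5 (adjusted p 0.0288) and Stab2 (0.00903) passed the limma threshold at 3 months. At 6 months Stab2 passed (0.0341) and Lyve1 did not (0.0598), and Vwf did not at 6 months against 2 weeks (0.0588). With the block Flt1 at 6 months against 2 weeks was 0.021 in place of -0.019, and Kdr at 6 against 3 months 0.020 in place of -0.0059. Over all genes, calls for LNA-29 fell from 355 to 70 with the block and 212 without the filter, those at 6 months against 2 weeks from 1203 to 574 with the block, those at 3 months against 2 weeks from 320 to 195 with the block and 162 with only the 2 groups, and those at 6 against 3 months from 2 to 1 with the block. Leaving out 1 library also moved these counts. For LNA-29 they ran from 120 (without LNA-29 replicate 3) to 540 (without LNA-29 replicate 2), not as low as with the block. At 3 months against 2 weeks they ran from 41 (without 2-week replicate 2) to 557 (without 3-month replicate 5). At 6 months against 2 weeks they ran from 317 (without 2-week replicate 2) to 1716. At 3 months against prediabetes they ran from 1456 (without 3-month replicate 1) to 2389 in place of 2248. At 6 months against prediabetes they ran from 1919 to 3567 in place of 2875. They ran from 0 to 4 at 6 against 3 months and from 0 to 3 at 2 weeks against prediabetes. The depth behind the normalised counts is unknown, so precision rests on the number of animals.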

Other observations

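The genes whose levels most resembled the panel were ranked by their correlation with the mean of the panel's standardised log2 values, as a description over libraries that share normalisation and group structure. Over the 20 rat libraries and 11408 genes the 6 highest were Adam23 (r = 0.92), a disintegrin-like surface protein, Plekho2 (0.91), Hip1 (0.91), Nlrc4 (0.90), a sensor of the macrophage inflammasome, RGD1304884 (0.90) and Man2a2 (0.89), a Golgi mannosidase. With group means subtracted these had r from 0.84 to 0.87. Over the 11 mouse libraries and 11890 genes they were Podn (0.95), Mrpl23 (0.93), Cxcl16 (0.93), Colec11 (0.93), Ifi204 (0.92) and St3gal2 (0.92). No gene was among the 6 in both species.

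For 6 sample numbers of the rats both kinds of library were made. In these, Egfl7 ran from 214 to 397 normalised counts and miR-126a-3p from 1117 to 1594 RPM. The lowest Egfl7 value, in prediabetic replicate 3, came with 1351 RPM, and the highest, in prediabetic replicate 2, with 1366 RPM.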
